A study of Arabidopsis thaliana with 12 samples.

Results

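Universal stress proteins are small soluble proteins built around an adenine nucleotide binding fold that is shared with the bacterial protein UspA, and plants carry many genes for them. HRU1 (AT3G03270, HYPOXIA RESPONSIVE UNIVERSAL STRESS PROTEIN 1) is the member of this family best known from low oxygen. Its protein interacts with the small GTPase ROP2 and with the NADPH oxidase RBOHD, and it influences hydrogen peroxide production in seedlings short of oxygen. AT3G53990 has been described as an RNA and protein chaperone in heat, cold and oxidative stress, and a crystal structure of the AT3G01520 protein holds bound AMP. HRU1 is a target of the group VII ethylene response factors (ERFVIIs), transcription factors that are degraded through the PRT6 N-degron pathway when oxygen is present.

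The transcripts of 9 universal stress protein genes were followed among the 37885 genes of the count table: HRU1, named T17B22.4 there, and AT3G53990, AT3G17020, AT3G62550, AT2G47710, AT3G01520, AT1G68300, AT5G14680 and AT3G11930. These genes were chosen from results of the same libraries, with HRU1 placed first. Their differences between genotypes are therefore given as a description, with standard errors and without p-values, and all 3 comparisons are treated as having been used in the choice. All 9 genes had enough counts to be kept in each fit. The lists of further family genes, kinases and peroxide-related genes below were also drawn up with earlier results of these data known. The p-values given for genes of these lists are therefore not independent support.

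Whole seedlings were harvested untreated at an age of 7 days from half-strength MS agar without sucrose under continuous light, as 4 biological replicates of each of 3 genotypes. Col-0 is the wild-type accession. The line prt6-1 (hereafter prt6) is mutated in the E3 ligase PRT6, and prt6-1erfvii (hereafter prt6 erfVII) carries the prt6 mutation together with mutant alleles of the 5 ERFVII genes HRE1, HRE2, RAP2.2, RAP2.3 and RAP2.12. No treatment with low oxygen was part of these libraries, and an erfVII line with functional PRT6 was not analysed here. In RNA from whole seedlings, fewer cells of one type and less RNA per cell cannot be told apart.

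Total counts on genes ranged from 23156637 to 30582461 per library. PRT6 itself had 62.3 ± 4.14 CPM (counts scaled to library size by TMM, mean ± SD, n = 4) in Col-0, 64.1 ± 14.3 in prt6 and 9.07 ± 1.28 in prt6 erfVII. Its transcript therefore did not separate the prt6 libraries from Col-0, and these 4 are called the libraries labelled prt6. Between them and prt6 erfVII, although both labels name prt6-1, PRT6 differed by 2.81 ± 0.18 on the log2 scale (edgeR, SE). In that comparison the loss of ERFVIIs and this difference at PRT6 cannot be told apart. HRE1 had no count in any of the 4 prt6 erfVII libraries, RAP2.3 fell from 68.7 ± 10.9 CPM in the libraries labelled prt6 to 0.671 ± 0.235, and the means of RAP2.2 and RAP2.12 were 58.5 and 51.3 CPM in prt6 erfVII against 109 and 98.7. The green tissue transcript RBCS1A lay at group means between 14051 and 15151 CPM and the root transcript PIP2-4 between 11.0 and 14.3. The green tissue transcript LHCB1.3 was higher in Col-0 (16861 to 17871 CPM) than in the other genotypes. It had 14079 to 15395 CPM in the libraries labelled prt6 and 13796 to 16305 in prt6 erfVII. The root hair transcript EXPA7 was lower in prt6 erfVII (3.61 to 4.80 CPM) than in Col-0 (5.08 to 8.34). Libraries of one genotype differed by more than counting noise in every pair (chi-square per degree of freedom 3.88 to 15.12), and replicate 4 of the libraries labelled prt6 stood farthest from its group. That library held the highest CPM of its group for 6 of the 9 genes, and replicate 3 of prt6 erfVII did so for 8 of the 9.

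In TAIR10.1 (RefSeq), HRU1 lies on the minus strand of chromosome 3, from 761004 to 763369, in a stretch where it overlaps no other annotated gene. Of the other 8 genes, 5 lie on chromosome 3 as well, and AT1G68300, AT2G47710 and AT5G14680 lie on chromosomes 1, 2 and 5. The longest annotated proteins are between 160 residues (AT3G53990 and AT1G68300) and 226 residues (AT3G11930), with 201 for HRU1. Over the 36 pairs of proteins the identity ranged from 25.6% to 80.6%, with a median of 32.2%. HRU1 was closest to AT3G53990 (48.1%) and AT3G17020 (45.0%), and the closest pair of all was AT3G01520 and AT5G14680 (80.6%). Counting used uniquely mapped reads, so reads that fit both genes of such a pair would not have been counted for either. HRU1 and AT3G53990 also share the lengths of their first 3 coding exons, which are 175, 110 and 119 bases. HRU1 is annotated with 2 isoforms that end in different coding exons of 202 and 76 bases, and the counts per gene do not separate them. AT3G01520 overlaps AT3G01530 on the opposite strand, AT5G14680 overlaps AT5G14670 and AT1G68300 overlaps AT1G68290. Whether strand was used in counting is not given in the sources used here. Reads from these genes and from their opposite-strand partners therefore cannot be told apart. AT1G68300 also overlaps AT1G08973 on its own strand, where counting by strand would not separate the reads.

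**Figure D1:**
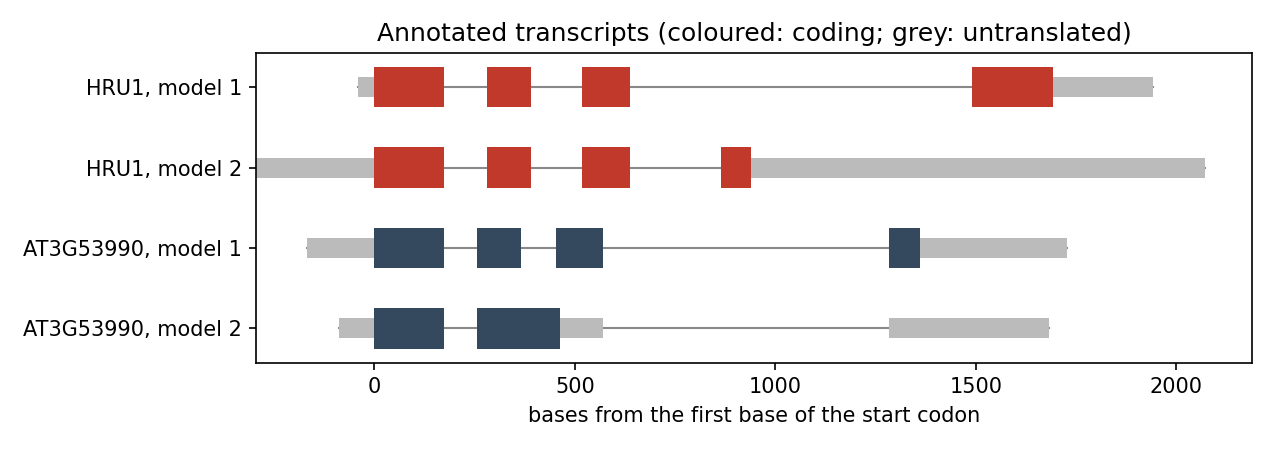
Annotated transcripts of HRU1 and AT3G53990 in TAIR10.1, drawn to scale in bases from the start codon (x axis), with coding exons coloured and untranslated parts in grey. Coding exons of 175, 110 and 119 bases open both HRU1 models and the upper AT3G53990 model, and the last coding exon of HRU1 measures 202 bases in model 1 and 76 in model 2.

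The upstream sequences of HRU1, the gene with the largest difference, and of its closest relative by protein sequence, AT3G53990, are shown because the first differed between genotypes by several fold and the second overlapped. Each is the 250 bases before the most upstream annotated transcript start, 5′ to 3′ on the coding strand. They lie at chr3:763370-763619 (minus strand) for HRU1 and chr3:19991187-19991436 (minus strand) for AT3G53990 in TAIR10.1 from RefSeq. Each gene has another annotated start farther downstream. Counted from the start codon, the HRU1 models start at -294 and -40 and those of AT3G53990 at -167 and -87. The bases between these starts lie outside the upstream windows searched below. They lie inside the annotated gene regions, which were searched for the hypoxia-responsive promoter element only. Capitals mark the letters ACGTG and AAACC in HRU1, the latter reading as GGTTT on the other strand, and ATCTA in AT3G53990.
HRU1: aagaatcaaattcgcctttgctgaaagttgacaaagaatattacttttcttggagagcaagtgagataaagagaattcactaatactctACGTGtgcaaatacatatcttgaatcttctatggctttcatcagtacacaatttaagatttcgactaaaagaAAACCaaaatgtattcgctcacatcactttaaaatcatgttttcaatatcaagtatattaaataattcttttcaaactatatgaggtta
AT3G53990: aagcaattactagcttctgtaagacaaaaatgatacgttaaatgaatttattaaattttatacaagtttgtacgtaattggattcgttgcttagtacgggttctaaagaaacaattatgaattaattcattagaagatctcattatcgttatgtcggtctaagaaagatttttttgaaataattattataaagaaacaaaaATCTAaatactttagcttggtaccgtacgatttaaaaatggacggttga
Several sets of letters were searched on both strands. The hypoxia-responsive promoter element (HRPE), to which ERFVIIs bind, had no match with up to 1 mismatch in the 1000 bases upstream of any of the 9 genes. The annotated regions of the 9 genes held no such match either. The same upstream search found a match in 1.95% of 27443 promoters of the same length. The study itself searched promoters and gene regions for this element with the tool FIMO, so its matches can differ from those given here. The letters GCCGCC, the GCC box recognised by ERF proteins, occurred upstream of AT2G47710, AT3G01520, AT1G68300 and AT5G14680 within 1000 bases and were absent there from HRU1 (8.44% of promoters hold them). ATCTA, an element that RAP2.2 binds, was present within 1000 bases in 93% of promoters and in the other 8 genes, but not in HRU1. CACGTG, the G-box, was found upstream of none of the 9 genes (14.8% of promoters). In the printed window, HRU1 holds ACGTG, the core of the G-box without its first letter, at position -161 from the most upstream transcript start. It also holds GGTTT, the GT motif known from the alcohol dehydrogenase promoter, at -89 on the opposite strand. In the window of AT3G53990, ATCTA lies at -49. ACGTG and GGTTT were searched after the HRU1 window had been seen, and 22.9% and 54.7% of all 250-base windows hold them. A match of letters is a description of the sequence and not of binding.

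The first question was how each gene differed between seedlings in which ERFVII proteins are thought to be stable (prt6) and seedlings without them (prt6 erfVII). HRU1 had 130, 104, 113 and 117 CPM in the 4 libraries labelled prt6, and 19.3, 21.3, 23.7 and 20.5 CPM in prt6 erfVII. The lowest library labelled prt6 was more than 4 times the highest prt6 erfVII library, and the groups did not come near each other. The raw counts were 2615 to 3578 against 497 to 614. The fitted difference was 2.44 ± 0.08 on the log2 scale (edgeR, SE), or 5.43-fold, which placed HRU1 at rank 77 of the 20857 genes tested when these were ordered by log2 fold change. Without replicate 4 of the libraries labelled prt6 it was 2.44 as well.

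None of the other 8 genes differed by as much as 1 log2 unit. AT2G47710, a small family member of unknown role, had 99.2, 97.9, 88.2 and 114 CPM in the libraries labelled prt6 and 68.7, 66.2, 79.8 and 75.6 CPM in prt6 erfVII. All libraries labelled prt6 were higher, with a log2 difference of 0.45 ± 0.08. AT3G11930 went the other way, with 99.9, 96.4, 103 and 127 CPM in the libraries labelled prt6 and 164, 155, 198 and 171 CPM in prt6 erfVII. Its groups did not overlap either, and the log2 difference was -0.70 ± 0.09, the lowest of the 9. AT3G01520, whose protein was crystallised with AMP, had 51.0, 43.0, 42.4 and 49.3 CPM in the libraries labelled prt6 and 51.3, 52.2, 62.2 and 58.9 CPM in prt6 erfVII (log2 difference -0.29 ± 0.08). Its groups only just separated, at 51.0 and 51.3 CPM.

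The remaining 5 genes overlapped between the same genotypes. AT3G53990, the chaperone and the closest relative of HRU1, had 51.5, 45.4, 47.7 and 55.0 CPM in the libraries labelled prt6 and 51.2, 52.4, 62.8 and 53.0 CPM in prt6 erfVII. The groups overlapped between 51.2 and 55.0 CPM, and the log2 difference was -0.15 ± 0.08. AT3G17020, the next relative and the gene with the most counts of the 9, had a log2 difference of 0.05 ± 0.08 (132 to 162 CPM in both groups). For AT3G62550 the libraries spread widely, from 59.2 to 80.8 CPM and from 64.2 to 114 CPM, and the log2 difference of -0.43 carried the largest standard error of the 9 in this comparison (0.18). AT1G68300 (0.16 ± 0.09) and AT5G14680 (-0.17 ± 0.08) were the other 2.

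**Figure D2:**
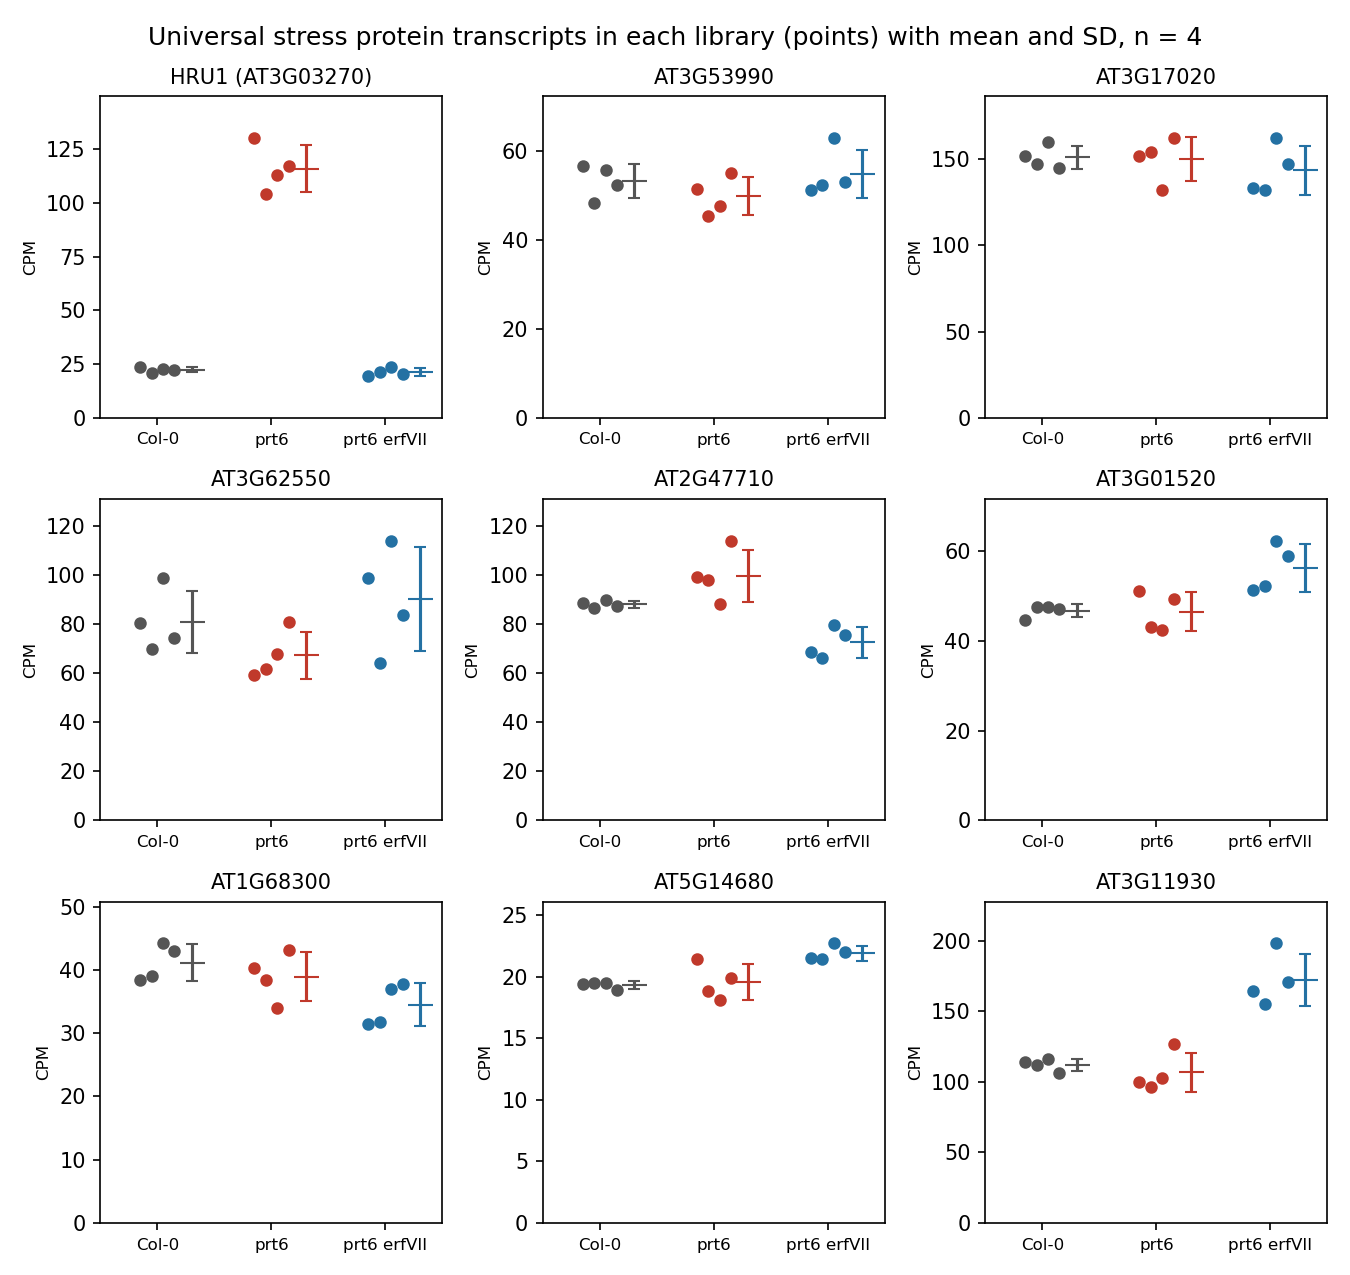
CPM of the 9 genes (1 panel each, y axis from 0) in the 4 libraries of each genotype (points), with the mean and SD beside them. HRU1 stood at 104 to 130 CPM in the libraries labelled prt6 and at 19.3 to 23.8 CPM in the other 8 libraries, whereas AT3G11930 was highest in the 4 prt6 erfVII libraries (155 to 198 CPM).

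Counted by the threshold of an adjusted p under 0.05 used for all genes, 4 of the 9 genes were past it between prt6-labelled and prt6 erfVII libraries, 2 higher (HRU1 and AT2G47710) and 2 lower (AT3G11930 and AT3G01520), beside 31.3% of all genes tested. The same 4 genes had libraries that did not overlap, beside 31.2% of all genes. The count lay between 3 and 5 when 1 library was left out. The median log2 difference of the 9 was -0.15, and that of all genes -0.001. Since the genes were chosen with these results known, nothing is read from these counts.

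Between Col-0 and prt6 erfVII the question was what the loss of ERFVIIs and PRT6 together changed against the wild type. HRU1 overlapped between them, with 23.8, 21.0, 22.8 and 22.3 CPM in Col-0, inside or next to the range of prt6 erfVII. The log2 difference was 0.09 ± 0.08. AT3G11930 had the largest difference of the 9 in this comparison, with 114, 112, 116 and 106 CPM in Col-0, all below the 155 CPM of the lowest prt6 erfVII library (log2 -0.62 ± 0.06). AT2G47710 was nearly constant over the Col-0 libraries, at 88.5, 86.5, 90.0 and 87.4 CPM, and all 4 were above prt6 erfVII (log2 0.28 ± 0.06).

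AT3G01520 (44.5 to 47.6 CPM in Col-0, log2 -0.27 ± 0.06) and its close relative AT5G14680 (18.9 to 19.5 CPM in Col-0 and 21.4 to 22.7 in prt6 erfVII, log2 -0.18 ± 0.07) were both lower in Col-0 without overlap. AT1G68300 was higher in Col-0, at 38.4, 39.1, 44.2 and 43.0 CPM against 31.4, 31.8, 37.0 and 37.8 CPM (log2 0.25 ± 0.07). AT3G53990, AT3G17020 and AT3G62550 overlapped, with log2 differences of -0.04 ± 0.07, 0.08 ± 0.06 and -0.16 ± 0.20. In all, 5 of the 9 were past the threshold, beside 37.2% of all genes, and the same 5 had no overlap, beside 34.8%. AT5G14680 dropped out of this count with DESeq2 and whenever any 1 of the 8 libraries was left out, and 4 genes then remained past the threshold. The median log2 difference was -0.04 for the 9 genes and 0.009 for all genes.

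Between prt6-labelled and Col-0 libraries, HRU1 stood alone among the 9. Its log2 difference was 2.37 ± 0.07, or 5.17-fold, and its rank by log2 fold change was 27 of 20899 genes tested. It was the single gene of the 9 past the threshold, beside 2.18% of all genes, and the single one without overlap, beside 7.76% of all genes. The median log2 difference was -0.01 for the 9 genes and 0.002 for all genes. The other 8 lay between -0.26 ± 0.12 for AT3G62550 and 0.18 ± 0.07 for AT2G47710. For AT2G47710 the lowest library labelled prt6 (88.2 CPM) lay inside the range of Col-0 (86.5 to 90.0 CPM). AT3G11930, lower than in prt6 erfVII in both comparisons with that genotype, had a log2 difference of -0.07 ± 0.07 here, and AT3G01520 and AT3G17020 had -0.01 ± 0.07 and -0.01 ± 0.06. The 3 comparisons share libraries pairwise, so their values are set side by side and not as separate evidence.

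**Figure D3:**
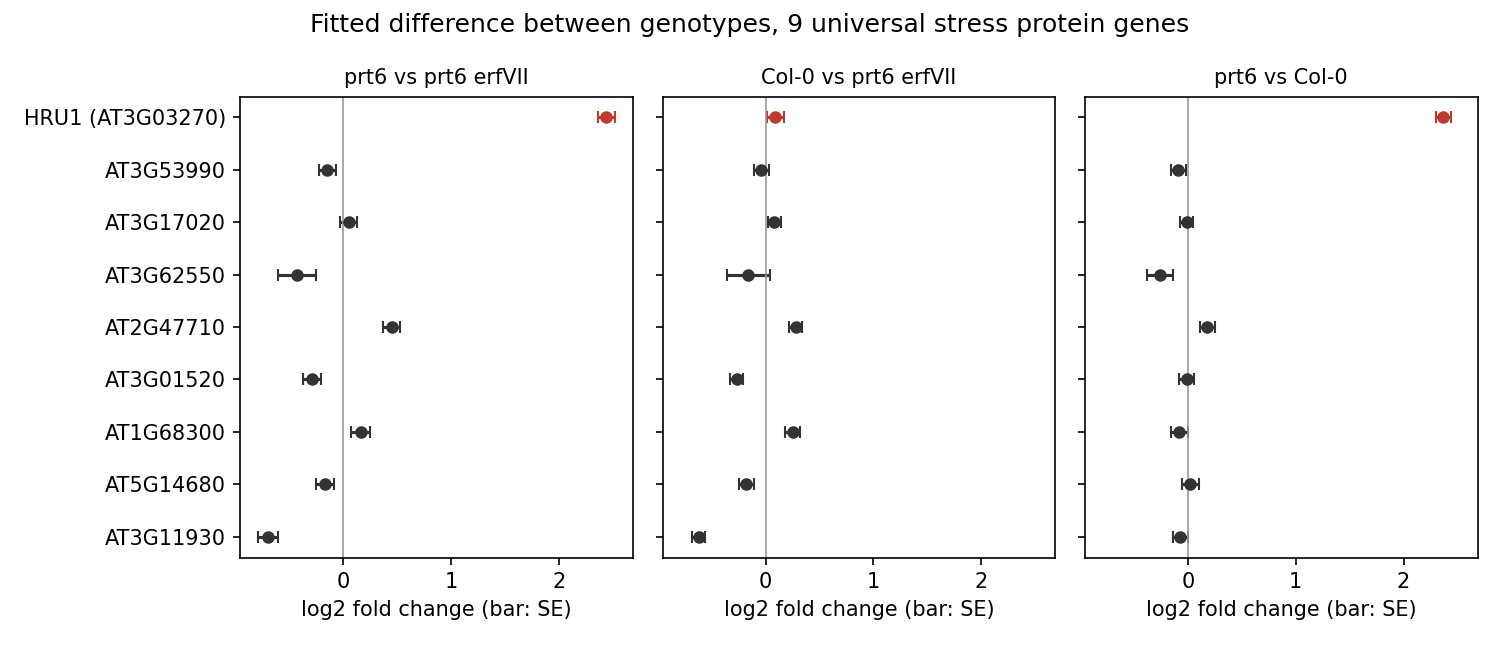
Fitted log2 fold change of each gene (x axis, bar: SE) in the 3 comparisons, positive where the genotype named first is higher. HRU1 lay at 2.44 and 2.37 in the comparisons of prt6 with prt6 erfVII and with Col-0 and at 0.09 between Col-0 and prt6 erfVII, and AT3G11930 lay at -0.70 and -0.62 in the comparisons with prt6 erfVII.

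Some of the 9 genes lie near loci that carry a mutation in prt6 erfVII. AT2G47710 is 51.0 kb from HRE2, AT3G17020 is 95.4 kb from RAP2.3 and AT3G11930 is 959.4 kb from RAP2.2, while HRU1 is 3973.8 kb from the nearest, RAP2.2. For these genes, the loss of ERFVII function and other differences carried along with the mutant chromosome segments cannot be told apart.

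Per length of exon the order of the genes changed with genotype. In Col-0, HRU1 had the lowest level of the 9, at 11.8 ± 0.629 CPM per kb of exon (SD, n = 4), and its libraries overlapped with those of AT5G14680 (12.8 ± 0.202). In the libraries labelled prt6 it came after 3 other genes, at 60.9 ± 5.52 CPM per kb, with libraries that overlapped those of AT3G62550 (58.5 ± 8.39). In prt6 erfVII it was lowest again, at 11.1 ± 0.985, below AT5G14680 (14.5 ± 0.393) without overlap. AT3G17020 was highest in Col-0, at 115 ± 4.84 CPM per kb, and AT3G11930 was highest in prt6 erfVII, at 139 ± 14.9. In the libraries labelled prt6, AT3G17020 (115 ± 9.59) and AT2G47710 (102 ± 10.8) led with overlapping libraries.

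**Figure D4:**
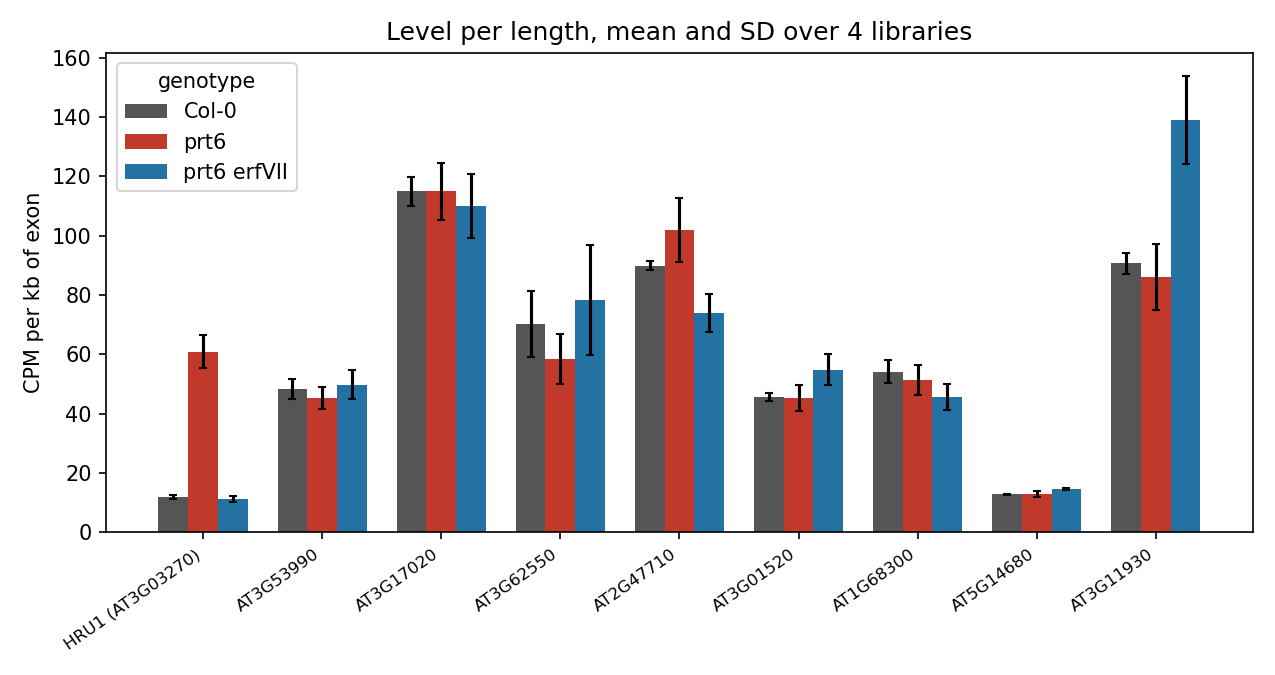
Level per length (y axis, CPM per kb of exon) of the 9 genes in Col-0, prt6 and prt6 erfVII, as the mean (bars) and SD (error bars) of 4 libraries. HRU1 had the lowest mean in Col-0 (11.8) and 60.9 in the libraries labelled prt6, and AT5G14680 lay between 12.8 and 14.5.

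The spread between replicates differed from gene to gene. The coefficient of variation of CPM over 4 libraries was 5.34% for HRU1 in Col-0, 9.07% in the libraries labelled prt6 and 8.85% in prt6 erfVII. AT3G62550 was the most variable of the 9, at 15.7%, 14.3% and 23.5%, and AT5G14680 the least variable in Col-0 (1.58%) and in the libraries labelled prt6 (7.40%) and prt6 erfVII (2.72%). In Col-0 AT2G47710 reached 1.69%, compared with 10.6% in the libraries labelled prt6.

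The share of HRU1 in the transcripts of its family was taken over 26 genes, which are the 9 genes and 17 further genes annotated with a universal stress protein domain and no kinase domain. HRU1 made up 1.44% ± 0.0614 of the summed level per length of these genes in Col-0, 7.09% ± 0.640 in the libraries labelled prt6 and 1.31% ± 0.0881 in prt6 erfVII (SD, n = 4). The sum without HRU1 was 812 ± 29.9, 799 ± 59.1 and 835 ± 65.7 CPM per kb, and these ranges overlapped.

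Of the 17 further genes, 13 had enough counts to be tested. Between prt6-labelled and prt6 erfVII libraries, 4 were higher and 1 was lower in edgeR's quasi-likelihood test (5 of 13 beside the 31.3% of all genes), with a median log2 difference of 0.05. Between Col-0 and prt6 erfVII, 4 were higher and none lower (beside 37.2%), and the median was 0.06. Between prt6-labelled and Col-0 libraries none passed in edgeR (beside 2.18% of all genes) or in DESeq2, and 1 had an unadjusted p under 0.05. The count of 5 was not stable: it fell to 2 without replicate 1 or 2 of the libraries labelled prt6, to 4 without replicate 3 or 4, to 3 without replicate 1 or 2 of prt6 erfVII, to 2 without replicate 3 and to 1 without replicate 4 of that genotype.

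AT2G03720 (MRH6, known from root hair growth) rose the most of these, from 1.42 ± 0.257 CPM in prt6 erfVII to 3.37 ± 0.366 in the libraries labelled prt6, by 1.24 ± 0.20 on the log2 scale (edgeR, adjusted p = 0.000108), and it was also higher in Col-0 (2.78 ± 0.470 CPM, log2 0.98 ± 0.22, adjusted p = 0.00112). It passed in both comparisons under all 14 alternatives, with adjusted p up to 0.00798. The root hair transcript EXPA7 was lower in prt6 erfVII as well, at a mean of 4.20 CPM against 8.32 and 7.19, and the part of root hair number in the MRH6 difference was not tested. AT1G69080 differed by 0.49 ± 0.16 and 0.82 ± 0.16 in the same comparisons (edgeR, adjusted p = 0.027 and 0.0002), and AT5G17390 by 0.53 ± 0.19 and 0.54 ± 0.19 (adjusted p = 0.0427 and 0.0337).

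AT2G21620 (RD2, named for its response to desiccation) was the most abundant of the further genes by counts, at 97.3 ± 8.66 CPM in the libraries labelled prt6 and 84.3 ± 2.07 in prt6 erfVII, a log2 difference of 0.20 ± 0.07 (edgeR, adjusted p = 0.0314), and of 0.19 ± 0.05 from Col-0 (adjusted p = 0.0053). Against prt6 erfVII in prt6-labelled libraries, AT1G69080, AT5G17390 and AT2G21620 each passed in 8 of 14 alternatives, and AT1G11360, the single gene that was lower (log2 -0.22 ± 0.07, adjusted p = 0.0298), in 9 of 14. AT1G11360 falls outside the rule for named genes and is named because it was the single one. For AT1G69080 and AT2G21620, 14 of 14 alternatives passed against Col-0, and for AT5G17390 10 of 14.

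Close to HRU1 on chromosome 3 lies another family gene, AT3G03290, which starts at 766685. It was too low to be tested, with group means from 0.0951 to 0.359 CPM. The nearest genes on either side, AT3G03260 and AT3G03272, had group means of at most 0.0622 CPM. AT3G03250, which lies beyond AT3G03260, had 154 ± 1.87 CPM in Col-0, 162 ± 9.63 in the libraries labelled prt6 and 128 ± 5.42 in prt6 erfVII. Against prt6 erfVII it was higher without overlap in prt6-labelled libraries (log2 0.32 ± 0.06, edgeR, adjusted p = 0.00057). The same held in Col-0 (log2 0.26 ± 0.05, edgeR, adjusted p = 0.000168). AT3G03280, between AT3G03272 and AT3G03290, was lower in the libraries labelled prt6 (0.382 ± 0.221 CPM) than in prt6 erfVII (0.962 ± 0.366) with libraries that overlapped (log2 -1.31 ± 0.44, edgeR, adjusted p = 0.0277), and it was lower in Col-0 (0.356 ± 0.201 CPM) than in prt6 erfVII as well (log2 -1.40 ± 0.44, adjusted p = 0.0136), again with overlap. Between prt6-labelled and Col-0 libraries it did not pass (log2 0.10 ± 0.53, adjusted p = 0.973).

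Kinases that carry a universal stress protein domain formed a second group of relatives, with 17 genes whose annotation names the family, of which 8 were tested. Between prt6-labelled and prt6 erfVII libraries, 3 were higher and 2 lower (beside 31.3% of all genes), and between Col-0 and prt6 erfVII likewise 3 were higher and 2 lower (beside 37.2%), while none passed between prt6-labelled and Col-0 libraries in edgeR (0 with an unadjusted p under 0.05) or in DESeq2 (beside 2.18%). A further 3 of 20 listed kinases (AT2G19410, AT5G51270 and AT5G61550) were left out because their annotation names only a U-box and a kinase domain, and with them 11 were tested and 4 were higher and 2 lower in each comparison with prt6 erfVII. The added gene was AT2G19410, with a log2 difference of 1.21 ± 0.42 in both comparisons (edgeR, adjusted p = 0.0353 and 0.0253), which passed in 8 and 10 of 14 alternatives. The count of 5 between Col-0 and prt6 erfVII fell to 3 without replicate 2 or 4 of Col-0 and without replicate 1 or 3 of prt6 erfVII. AT4G25160 had the largest difference of the 8, 1.04 ± 0.29 on the log2 scale (edgeR, adjusted p = 0.00953), from 0.772 ± 0.142 CPM in prt6 erfVII to 1.61 ± 0.365 in the libraries labelled prt6. AT1G77280 was higher than in prt6 erfVII by 0.42 ± 0.09 in the libraries labelled prt6 and by 0.37 ± 0.08 in Col-0, and AT5G63940 by 0.27 ± 0.07 and 0.30 ± 0.06. AT5G57035 was lower by -0.30 ± 0.08 and -0.26 ± 0.08, and AT5G61560 by -0.58 ± 0.13 and -0.34 ± 0.12. The last of these calls, AT5G61560 between Col-0 and prt6 erfVII, was lost in 5 of 14 alternatives. The third kinase higher in Col-0 was AT3G20200 (log2 0.44 ± 0.16, adjusted p = 0.037), which passed in 7 of 14 alternatives and is named after its value was seen.

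HRU1 is known to act with ROP2 and RBOHD, so these genes, the ROP2 regulator ROPGAP4 and genes that respond to or remove hydrogen peroxide were examined as well. Of 10 such genes 9 were tested. Against prt6 erfVII, 2 were higher and 3 lower in prt6-labelled libraries (beside 31.3% of all genes). Between Col-0 and prt6 erfVII, 1 was higher and 3 lower (beside 37.2%). Between prt6-labelled and Col-0 libraries none passed in edgeR (beside 2.18% of all genes), with 3 at an unadjusted p under 0.05. In DESeq2 1 passed (ZAT10, adjusted p = 0.039), beside 315 higher and 364 lower among all genes. Without replicate 4 of the libraries labelled prt6, 3 passed in that comparison: RBOHD, HSFA4A and APX1. In that fit 576 genes were higher and 655 lower among all 21031 tested. None passed there when any other single library was left out.

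ROP2 had 62.1 ± 2.78 CPM in Col-0, 61.7 ± 6.56 in the libraries labelled prt6 and 67.2 ± 2.98 in prt6 erfVII, and it passed in no comparison (log2 -0.13 ± 0.07, adjusted p = 0.179 between prt6-labelled and prt6 erfVII libraries). RBOHD, which makes superoxide outside the cell, had 74.4 ± 2.60, 87.2 ± 9.59 and 66.2 ± 8.14 CPM. It was higher in prt6-labelled libraries than in prt6 erfVII by 0.38 ± 0.09 (edgeR, adjusted p = 0.00404), with libraries that overlapped, and its difference from Col-0 of 0.23 ± 0.07 did not pass (adjusted p = 0.126). Without replicate 4 of the libraries labelled prt6 this difference was 0.31 ± 0.05 and passed (edgeR, adjusted p = 0.000564). It did not pass when any other single library was left out.

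Genes of the peroxide response did not move one way. ZAT12, a zinc finger factor induced by hydrogen peroxide, had its highest mean in prt6 erfVII, at 10.6 ± 1.80 CPM against 6.98 ± 1.21 in the libraries labelled prt6 and 5.78 ± 1.58 in Col-0 (log2 -0.61 ± 0.14 and -0.86 ± 0.18, edgeR, adjusted p = 0.00303 and 0.00136). Its libraries labelled prt6 reached 8.56 CPM and overlapped those of prt6 erfVII, which began at 8.39 CPM. The heat stress factor HSFA4A had the same order, with 16.9 ± 0.996, 14.1 ± 0.997 and 11.4 ± 0.646 CPM (log2 -0.28 ± 0.09 and -0.57 ± 0.09, adjusted p = 0.0214 and 1.52e-05). The first of these HSFA4A calls was lost without replicate 4 of the libraries labelled prt6 and without replicate 3 or 4 of prt6 erfVII. CAT2, the main leaf catalase, was also highest in prt6 erfVII, at 1563 ± 92.3 CPM against 1225 ± 61.0 and 1290 ± 70.6 (log2 -0.36 ± 0.06 and -0.28 ± 0.06, adjusted p = 0.000126 and 0.000365). ZAT10, a related zinc finger factor, was higher in prt6-labelled than in prt6 erfVII libraries (log2 0.37 ± 0.10, edgeR, adjusted p = 0.00755). It was also higher than in Col-0 without overlap (log2 0.46 ± 0.14), but this did not pass in edgeR (adjusted p = 0.161). That difference passed in DESeq2 (adjusted p = 0.039) and with the replicate number as a block (edgeR, adjusted p = 0.0111). The ascorbate peroxidase gene APX1 was higher in Col-0 than in prt6 erfVII (log2 0.21 ± 0.05, edgeR, adjusted p = 0.00283). In the main fits RBOHD, ZAT10 and APX1 passed in 1 comparison each, which is outside the rule for named genes. They are named after their values were seen. APX2 was too low to be tested, at a group mean of at most 0.0465 CPM, and HSFA2 and ROPGAP4 passed in no comparison.

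To find transcripts with the pattern of HRU1, its log2 CPM (prior count of 2), centred on its mean over the 12 libraries, was compared with that of the 21144 genes kept over all libraries, by the root mean square difference. The 5 most alike genes were AT2G19590 (ACO1, which makes ethylene, difference 0.142), AT3G27220 (0.228), AT4G33070 (PDC1, pyruvate decarboxylase of the fermentation pathway, 0.257), AT4G33560 (0.339) and AT5G65640 (bHLH093, a transcription factor, 0.379). Values of 0 would mean the same pattern in every library. The same 5 genes were found with a prior count of 0.5, and 3 of them when only the means of the 3 genotypes were compared. None of the other 8 genes was near: AT2G47710 came at rank 905 in this order.

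ACO1 had 19.3 to 23.7 CPM in the libraries labelled prt6, 3.27 to 4.43 in Col-0 and 3.41 to 4.81 in prt6 erfVII, without overlap between the first and the others. AT3G27220 had 19.6 to 24.8 CPM in the libraries labelled prt6 and 4.72 to 6.74 in the other libraries, and AT4G33560 had 9.91 to 18.6 and 1.36 to 2.14. PDC1 had 21.4 to 29.0 CPM in the libraries labelled prt6, 5.58 to 7.58 in Col-0 and 4.24 to 4.97 in prt6 erfVII. bHLH093 had the highest level of the 5, with 74.5 to 92.0, 29.4 to 31.6 and 21.5 to 22.9 CPM. For PDC1 and bHLH093 the Col-0 libraries were all above those of prt6 erfVII (log2 0.50 ± 0.14 and 0.47 ± 0.06), whereas HRU1 overlapped between these genotypes.

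**Figure D5:**
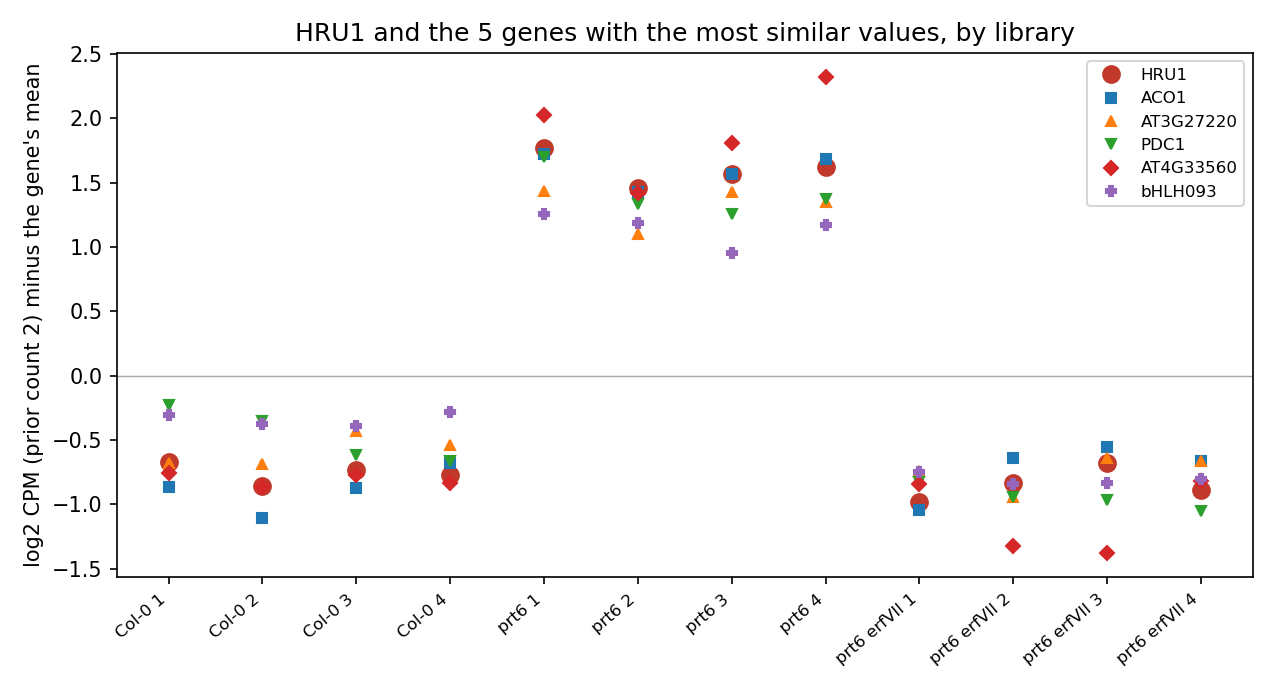
Log2 CPM with a prior count of 2, minus the mean of each gene (y axis), in the 12 libraries (x axis), for HRU1 (large circles) and the 5 most alike genes. HRU1 lay between 1.46 and 1.77 in the libraries labelled prt6 and between -0.98 and -0.67 in the other 8 libraries, and AT4G33560 reached 2.32 in replicate 4 of the libraries labelled prt6.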

How the data were processed

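The authors sequenced poly(A)-selected RNA, trimmed the reads, mapped them to TAIR10 with HISAT2 2.1.0 and counted those that mapped uniquely with featureCounts 1.6.0. The deposited values are raw counts per gene, without normalization, and every column could be given to a sample. Each comparison was fitted on its 8 libraries with edgeR 4.0.16 under R 4.3.3 (TMM, filterByExpr, robust quasi-likelihood test, Benjamini-Hochberg adjustment over all genes tested, threshold 0.05). DESeq2 1.42.0 was an alternative. The fits were tested on simulated data. Levels per length are CPM per kb of the union of exons. Gene models and sequences came from TAIR10.1 (RefSeq). The members and lists were chosen with earlier results of these data known. Outside the 9 genes, those named passed the test in 2 or more comparisons or by more than 1 log2 unit, or were among the 5 genes most like HRU1, with exceptions stated where they occur, and PRT6 and the ERFVII genes served to check the labels. The replicates are biological by their labels, and intervals cover the spread between them.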

Additional observations from a re-analysis of the deposited data

Results flagged for a closer look

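In 4 of the 96 groups of 4 libraries examined, 1 library stood far from the other 3 by Dixon's ratio, and chance flags about 1 group in 20. Among the 9 genes this was AT3G53990 in prt6 erfVII, where 1 library had 62.8 CPM and the other 3 had 51.2 to 53.0. AT2G03720 had 3.92 CPM in 1 library labelled prt6 and 3.16 to 3.22 in the other 3. AT5G17390 had 3.99 CPM in 1 library labelled prt6 and 2.86 to 2.92 in the other 3. The kinase gene AT4G25160 had 2.29 CPM in 1 Col-0 library and 0.701 to 0.946 in the other 3.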

How the results depend on the processing

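The HRU1 differences changed little: leaving out 1 library gave log2 values of 2.38 to 2.50 against prt6 erfVII, 2.31 to 2.42 against Col-0 and 0.04 to 0.14 between Col-0 and prt6 erfVII. The count of 5 further family genes past the threshold between prt6-labelled and prt6 erfVII libraries fell to 1 with the replicate number as a block and to between 1 and 4 with 1 library left out, and the cause was not tested. Differences near 0 changed sign when 1 library was left out: AT3G53990 between Col-0 and prt6 erfVII (-0.08 to 0.03), and between prt6-labelled and Col-0 libraries AT3G17020 (-0.05 to 0.04), AT3G01520 (-0.06 to 0.03) and AT5G14680 (-0.03 to 0.05). Whether libraries of the same number go together was looked at after each gene's genotype mean was subtracted from its log2 CPM. Over genes, these deviations correlated at -0.082 to 0.163 between same-numbered libraries of different genotypes. Among the libraries of the other genotypes, 5 of 12 libraries were closest to one of their own number. No baseline from differently numbered libraries is given, so whether the numbers pair the samples was not settled. The main fits left them unpaired. The replicate block gave more calls between Col-0 and prt6 erfVII (4201 positive and 4205 negative log2 differences, from 3890 and 3837). The same held between prt6-labelled and Col-0 libraries (277 and 263, from 227 and 228). Between prt6-labelled and prt6 erfVII libraries the block gave fewer (2690 and 3031, from 3056 and 3468). With the replicate block, 5 and 6 of the 9 genes were past the threshold against prt6 erfVII, in place of 4 and 5, AT3G62550 being added in both. Under the other length, that of the longest transcript, 3 levels per length in Col-0 moved by more than 1 SD (AT3G53990 to 52.4, AT3G17020 to 122 and AT3G11930 to 97.0 CPM per kb). Without replicate 4 of the libraries labelled prt6, 576 and 655 genes were called higher and lower than in Col-0, in place of 227 and 228. The alternatives for genes outside the 9 were chosen after seeing the data. At group means under 1 CPM, as for AT3G03290, depth limits any comparison.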
